A study of Mus musculus with 2 samples.

Results

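The genes described here are 10 regulators of microtubules in the newborn mouse cortex: the structural microtubule-associated proteins (MAPs) Mapt, Map2, Map1b and Map1a, the doublecortins Dcx and Dclk1, and the stathmins Stmn1, Stmn2, Stmn3 and Stmn4. They were taken by symbol, with their 86 annotated transcripts, from 55536 annotated genes. Total RNA of the left cerebral cortex had been sequenced from female B6CASTF1/J mice at 4 days of age. These animals are a first cross between the strains CAST/EiJ and C57BL/6J, so both parental alleles contributed reads, and the tables give 1 value per gene on mm10. The 2 libraries, from animals that the labels number 3 and 4 under a shared donor record, formed 1 group, with 300 ng of RNA and synthetic spike-in RNAs in each. No treatment, genotype or age was contrasted. The text therefore gives levels, isoforms and the spread between the libraries, in which animal and library preparation cannot be told apart.

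Microtubules are polymers of alpha and beta tubulin that carry transport along axons and dendrites and shape migrating neurons. Tau, encoded by Mapt, and MAP2 bind the polymer through a row of related repeats and stabilise it; tau is concentrated in axons and MAP2 in dendrites and cell bodies. MAP1B is prominent in growing axons, and MAP1A becomes prominent as neurons mature. Doublecortin and its relative, the kinase DCLK1, bind between protofilaments and are needed for migration and axon growth. Stathmins bind tubulin dimers and favour disassembly. Stathmin-1 is cytosolic, whereas stathmin-2, stathmin-3 and stathmin-4 carry an extension that anchors them to membranes.

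All 10 members were detected, that is, at 1 or more TPM (a length-scaled share of the library's transcripts) in both libraries. The share detected was 27.6% of all annotated genes and 59.6% of nuclear protein-coding genes. The median member level was 546 TPM, against 14.5 TPM over detected genes and 17.1 TPM over detected nuclear protein-coding genes. Levels in TPM are per length, so members can be set beside each other. In bulk tissue, fewer cells of a type and less RNA per cell cannot be told apart.

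The depth of the first table was 29310533 (replicate 1) and 28844674 (replicate 2) expected counts. All 5 neuronal markers and all 6 markers of cortical excitatory neurons were detected, with median levels of 214 and 119 TPM. Of 5 genes listed for other brain regions, 2 were detected, and Hoxb3 was at 0 in both libraries. The haemoglobin genes Hba-a1 and Hbb-bs had 171 and 153 TPM in replicate 1, against 20.9 and 20.3 TPM in replicate 2. Of 43 cell type markers, 3 were called different between the libraries (a log2 count ratio of 1 or more in size and an adjusted p below 0.05 in the exact binomial test used for the members), against 2.88% of all genes tested. They were both haemoglobin genes and Eomes, a marker of intermediate progenitors, at 2.44 and 0.610 TPM in replicates 1 and 2. The 2 detected genes of the list for other brain regions were Tcf7l2, at 8.33 and 5.92 TPM, and Foxj1, at 5.81 and 3.30 TPM. Neither was called, and their detection is not read as tissue from outside the cortex. Of the 2 markers of intermediate progenitors, 0 were detected in both libraries. All markers of inhibitory neurons (4), radial glia (5), astrocytes (4), microglia (3) and endothelium (2) and 4 of 5 of the oligodendrocyte lineage were detected, with list medians from 6.65 TPM (microglia) to 34.8 TPM (astrocytes). The part of these differences in the values below was not tested.

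Each library was quantified by the authors with 2 methods. The descriptions deposited with the files say that the first table, which has RSEM's column names, came from alignments and that the second, which has kallisto's, came from the read files. Where a value is not credited to the second table, it comes from the first.

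The sequences on which isoform results below turn, and those that tie the families together, are shown first. Map2 has an optional coding exon of 93 bases that encodes one of its microtubule-binding repeats, so its inclusion sets the number of repeats in the protein. It lies at chr1:66431527-66431619 (mm10, plus strand) and is written 5′ to 3′ from the transcript sequences of GENCODE M21, as are all sequences given here.
Map2 93-base exon: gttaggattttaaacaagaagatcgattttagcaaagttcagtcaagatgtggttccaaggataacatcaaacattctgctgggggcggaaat

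The 4 stathmin genes share a coding exon of 192 bases inside the tubulin-binding domain. It lies at chr4:134472804-134472995 (plus strand) in Stmn1, chr3:8554792-8554983 (plus strand) in Stmn2, chr2:181307216-181307407 (minus strand) in Stmn3 and chr14:66357846-66358037 (plus strand) in Stmn4, all on mm10. Capitals mark the 111 of 192 bases (57.8%) that all 4 genes share.
Stmn1 192-base exon: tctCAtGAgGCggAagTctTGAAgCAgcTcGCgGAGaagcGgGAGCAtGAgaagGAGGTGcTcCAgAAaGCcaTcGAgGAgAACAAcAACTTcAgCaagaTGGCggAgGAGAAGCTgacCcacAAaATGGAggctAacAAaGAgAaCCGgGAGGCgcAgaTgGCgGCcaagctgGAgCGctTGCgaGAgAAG
Stmn2 192-base exon: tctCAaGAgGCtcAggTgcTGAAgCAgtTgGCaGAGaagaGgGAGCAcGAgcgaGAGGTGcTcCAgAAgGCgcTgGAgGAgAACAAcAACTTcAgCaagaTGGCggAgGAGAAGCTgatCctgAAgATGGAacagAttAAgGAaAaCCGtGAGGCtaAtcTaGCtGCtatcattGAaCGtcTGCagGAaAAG
Stmn3 192-base exon: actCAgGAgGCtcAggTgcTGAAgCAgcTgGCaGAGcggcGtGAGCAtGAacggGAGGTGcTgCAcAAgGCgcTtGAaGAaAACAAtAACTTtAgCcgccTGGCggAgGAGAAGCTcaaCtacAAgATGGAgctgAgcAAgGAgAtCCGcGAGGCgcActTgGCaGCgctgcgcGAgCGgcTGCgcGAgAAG
Stmn4 192-base exon: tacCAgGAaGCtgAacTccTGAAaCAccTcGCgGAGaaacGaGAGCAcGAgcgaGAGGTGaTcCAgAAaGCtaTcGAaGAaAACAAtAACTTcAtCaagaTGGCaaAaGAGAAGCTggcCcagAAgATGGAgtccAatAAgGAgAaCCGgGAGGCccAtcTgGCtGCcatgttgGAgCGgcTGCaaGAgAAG

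Between pairs of stathmins, identity over this exon ran from 69.8% (Stmn3 and Stmn4) to 79.2% (Stmn1 and Stmn4). Stmn2, Stmn3 and Stmn4 also share coding exons of 96 and 57 bases. Stmn1 has an exon of neither length among its 4 coding exons, and its first 173-base block is matched in length by one of Stmn2 with 65.3% identity. Tau and Map2 share coding exons of 82, 113 and 213 bases, with 73.2%, 65.5% and 66.2% identical bases. Map1a and Map1b share 4 coding exon lengths, with identities between 51.8% (141 bases) and 78.4% (153 bases).

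**Figure D1:**
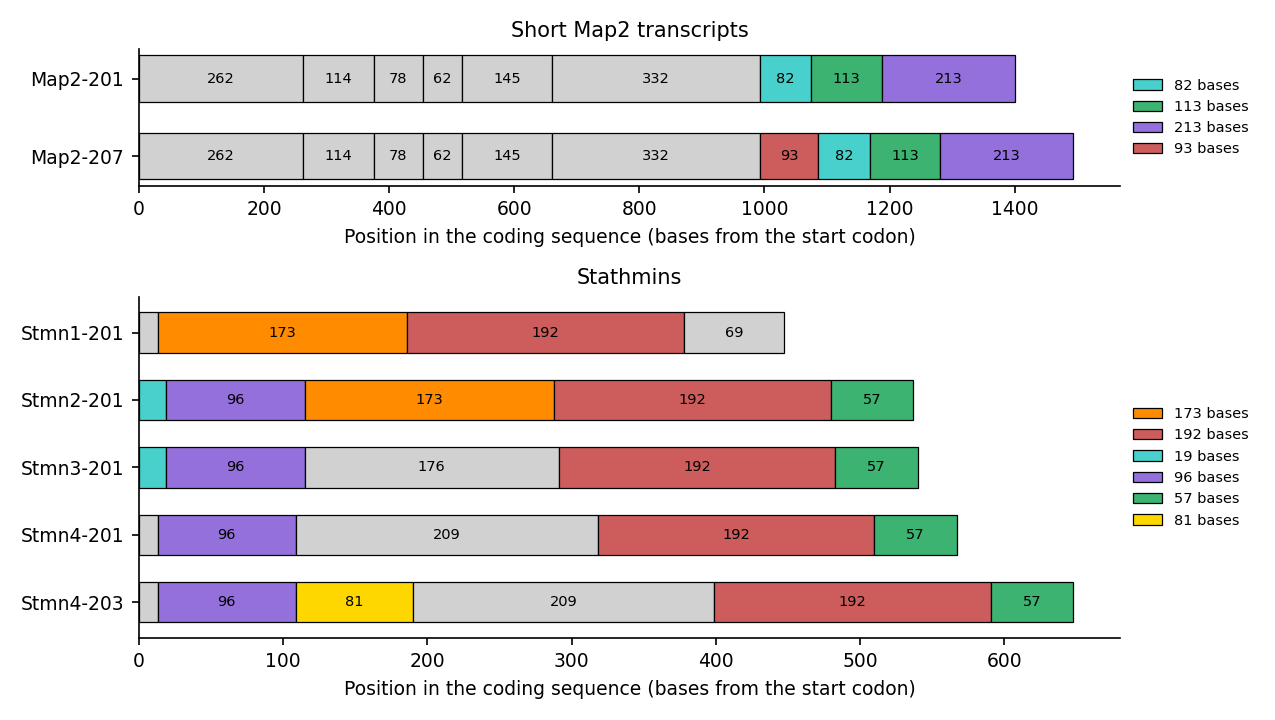
Coding exons of short Map2 transcripts (upper panel) and of the stathmins (lower panel), drawn to scale in bases from the start codon. Numbers in the boxes are exon lengths in bases, and a colour marks an exon length shared with another gene (in the upper panel, with tau) or an optional exon (93 bases in Map2, 81 in Stmn4). The 93-base exon is in Map2-207 and missing from Map2-201, and the 192-base exon (red, lower panel) is in every stathmin.

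Among the structural MAPs, Map1b had the highest level per length in the first table, and Map2 in the second. Map1b, on chromosome 13 (ENSMUSG00000052727.6, 99421446 to 99516540, minus strand), was at 798 TPM (replicate 1) and 843 TPM (replicate 2), which put it at rank 28 among nuclear protein-coding genes. Map2, on chromosome 1 (ENSMUSG00000015222.17, 66175273 to 66442583, plus strand), was at 663 and 708 TPM in replicates 1 and 2. Mapt, on chromosome 11 (ENSMUSG00000018411.17, 104231390 to 104332090, plus strand), was at 628 TPM in each library. For Map1b and Map2 the value of replicate 2 was the higher one, and the ranges of the 3 genes did not overlap.

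Map1a stood apart from the other structural MAPs. Map1a, on chromosome 2 (ENSMUSG00000027254.13, 121289600 to 121310832, plus strand), was at 87.5 TPM (replicate 1) and 94.0 TPM (replicate 2), at rank 1148. Map1b exceeded Map1a by 3.16 ± 0.01 on the log2(TPM + 1) scale (SD, n = 2). In the first table, Map1a was the one member below the level of Stmn4.

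The doublecortins lay close together. Dclk1, on chromosome 3 (ENSMUSG00000027797.15, 55242364 to 55539068, plus strand), was at 379 and 394 TPM in replicates 1 and 2. Dcx, on the X chromosome (ENSMUSG00000031285.14, 143855842 to 143933311, minus strand), was at 336 and 335 TPM. Dclk1 was higher in both libraries of the first table, but by less than a log2 ratio of 1. In the second table Dclk1 was at 459 and 491 TPM and Dcx at 462 and 455 TPM, so replicate 1 had the opposite order.

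In the first table, stathmins supplied the most abundant member and the least abundant but one. Stmn1, on chromosome 4 (ENSMUSG00000028832.11, 134468320 to 134473843, plus strand), was at 1725 TPM (replicate 1) and 1701 TPM (replicate 2) and held rank 6 among nuclear protein-coding genes. Stmn2, on chromosome 3 (ENSMUSG00000027500.10, 8509360 to 8561606, plus strand), was at 1150.0 and 1117 TPM and held rank 12. Both genes were above every other member in each library. Stmn3, on chromosome 2 (ENSMUSG00000027581.12, 181306459 to 181314500, minus strand), was at 464 and 465 TPM. Stmn4, on chromosome 14 (ENSMUSG00000022044.14, 66344296 to 66361680, plus strand), was at 312 and 316 TPM.

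From high to low the order was Stmn1, Stmn2, Map1b, Map2, Mapt, Stmn3, Dclk1, Dcx, Stmn4 and Map1a. The library values of no pair overlapped in the first table (0 of 45 pairs). The share of overlapping pairs over all detected genes was not computed, so this count is not read as a trait of the members. A pair was called apart when the log2 ratio in each library reached 1 or more in one and the same direction. This held for 24 of 45 pairs, against 66.2% of all pairs of detected genes. Of the 9 neighbouring pairs in the order, 1 was apart, Stmn4 over Map1a by 1.78 ± 0.06 (log2 ratio, SD, n = 2). With 2 libraries, the smallest two-sided p of an exact sign-flip permutation test is 0.5, so neighbouring levels were not tested.

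The order depended on the table. After TPM were rescaled to the sum over nuclear protein-coding genes, which took 50.4% and 51.2% of TPM in the first table and 81.7% and 81.3% in the second, Stmn4 was 1.55 times and Stmn1 1.30 times as high in the second table as in the first. Stmn2 was 0.694 times and Dclk1 0.766 times as high. Over the 10 members the median of this ratio was 0.966, and over detected nuclear protein-coding genes it was 0.941. Stmn1 exceeded Stmn2 by 0.60 ± 0.02 in the first table and by 1.498 ± 0.003 in the second (log2 ratios, SD, n = 2). Map1b lay above Map2 in the first table and below it in the second, and Dcx lay above Stmn4 in the first and below it in the second. Dclk1 also lay above Stmn4 in the first table and below it in the second, there with a log2 ratio of -0.72 ± 0.09 (SD, n = 2). Before rescaling, Map1b in the second table was below Mapt in replicate 1 (1091 against 1136 TPM) and above it in replicate 2 (1108 against 1091 TPM).

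**Figure D2:**
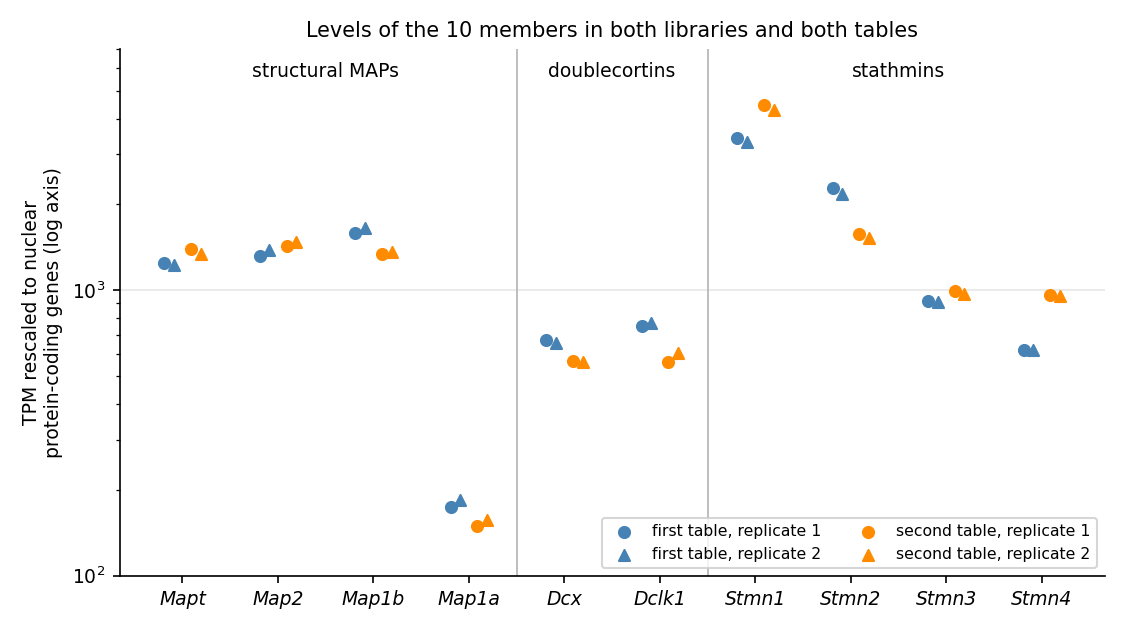
Level of each member in each library, in TPM rescaled to the sum over nuclear protein-coding genes (log axis), with circles for replicate 1, triangles for replicate 2, blue for the first table and orange for the second. Libraries lie close together within a table, and Map1a is lowest. For every member the means of the tables lie further apart than the libraries, by most for Stmn4 and Stmn2.

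Summed by role, the stathmins amounted to 3651 TPM in replicate 1 and 3600 TPM in replicate 2, and the 4 structural MAPs to 2176 and 2273 TPM. The doublecortins summed to 715 and 729 TPM. The 10 members together took 1.30% and 1.29% of the TPM of nuclear protein-coding genes. For comparison, 10 tubulin genes summed to 11712 and 11037 TPM, so that there were 0.312 and 0.326 stathmin transcripts per tubulin transcript in replicates 1 and 2. The second table gave 0.359 and 0.375 for the same ratio. These are ratios of transcript levels and carry no information on protein.

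No member was called different between the libraries (0 of 10), where calls required a log2 count ratio of 1 or more in either direction and an adjusted p below 0.05. Over all genes tested, 2.88% were called. The test, an exact two-sided binomial test on counts with Benjamini-Hochberg adjustment, compares these libraries and covers counting error only. Without a minimum size, 8 of 10 members passed, against 25.1% of all genes, and the 2 that did not were Map2 and Map1a. Count ratios of replicate 1 over replicate 2 ran from 0.997 (Map1a, 95% interval 0.976 to 1.02) to 1.09 (Stmn4, 95% interval 1.05 to 1.12), all well under the size a call needed. TPM was higher in replicate 2 for 7 of 10 members, against 65.2% of detected genes. For 6 of 10 members (Map1b, Map2, Mapt, Stmn3, Dclk1 and Stmn4) scaled counts were higher in replicate 1 and TPM in replicate 2, so the direction of these differences depended on the scale. The median size of the log2 count ratio was 0.10 over the members, 0.12 over detected genes and 0.14 over all genes tested.

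At the level of transcripts, 55 of the 86 models are protein coding, and 17 of these are incomplete at an end. The other 38, with a full coding sequence, are called complete coding transcripts. Shares of the TPM of complete coding transcripts use a denominator that was chosen after seeing the data. Stmn3 has 1 transcript and Map2 has 24. In the other 9 genes the transcript with the highest level was the same in both libraries in 9 of 9, against 87.7% of detected genes with several transcripts. It was the same in both tables in 7 of 9, against 65.4%. The exceptions were Dclk1 and Stmn4. The leading transcript took at least 50% of the gene's TPM in both libraries in 7 of 9, against 63.3%, and the exceptions were Map2 and Dclk1.

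**Figure D3:**
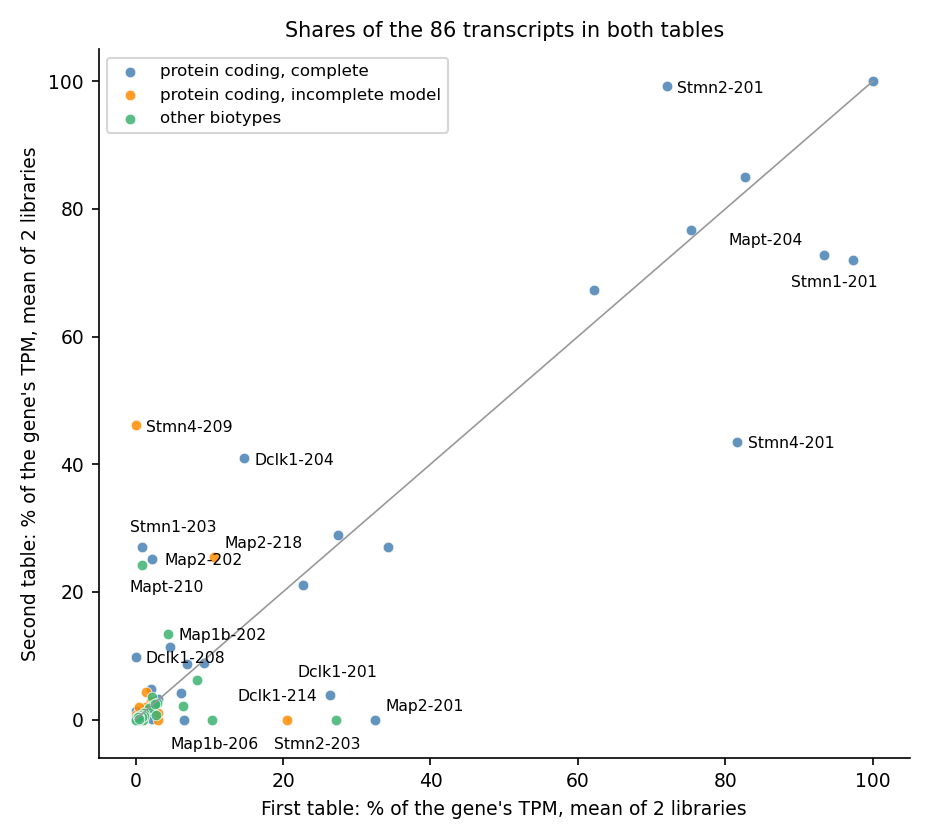
Share of its gene's TPM for each of the 86 transcripts, as the mean of both libraries, in the first table (x axis, percent) against the second (y axis, percent), with the line of equal shares. Transcripts more than 9 percentage points apart are named, and among them Stmn4-209, Stmn1-203, Mapt-210 and Map2-202 lie near 0 in the first table, and Map2-201, Stmn2-203 and Dclk1-214 near 0 in the second.

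For tau, one transcript made up almost all complete coding transcripts. The 4 complete models differ in internal coding exons only by the inserts described below and exons of 759, 711 and 198 bases. Forms that differ in another exon have no complete model, so this share cannot show them. Mapt-204, with 10 exons and 1116 coding bases, lacks both optional N-terminal insert exons and the large exon of big tau, a form known from peripheral neurons. It took 94.3% and 92.5% of Mapt TPM in replicates 1 and 2 of the first table, and 72.8% and 72.6% in the second. The rest of Mapt TPM in the second table lay mainly in Mapt-210, a processed transcript of 5 exons without a coding sequence, at 24.6% and 23.8%, against 0.605% and 1.18% in the first table. The 2 insert exons, of 87 bases each, lie at chr11:104287123-104287209 and chr11:104289908-104289994 (mm10, plus strand). They are shown because their joint inclusion separates the longer tau forms, which appear later in mouse brain development.
Mapt insert exon 1: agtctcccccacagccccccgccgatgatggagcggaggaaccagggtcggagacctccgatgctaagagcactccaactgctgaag
Mapt insert exon 2: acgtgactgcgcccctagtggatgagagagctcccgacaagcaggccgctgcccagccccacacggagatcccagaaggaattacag

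Transcripts with these inserts took 0.226% and 0.333% of complete coding Mapt TPM in the first table, and 0.773% and 0.890% in the second. The large exon of big tau was in 0.226% and 0.333% in the first table and in 0.411% and 0.681% in the second. The first-table counts behind these shares were 55.7 and 76.9 of 59303 and 55421. All of these counts lay in Mapt-202 and Mapt-203, which hold both inserts and the large exon. Mapt-201, with both inserts and without the large exon, was listed at 0 in the first table. Mapt-204 ends in an exon of 4119 bases, Mapt-201 in one of 248 bases and Mapt-202 and Mapt-203 in one of 216 bases. The shares therefore also carry any difference in 3′ end use between the models.

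Among complete coding transcripts, Map2 was split almost evenly between its large and small forms. High-molecular-weight MAP2 is encoded with a large internal exon of 3741 bases, present in Map2-204 (15 exons, 5484 coding bases), and low-molecular-weight MAP2, the juvenile form, without it. Of complete coding Map2 TPM, transcripts with the large exon took 46.5% and 47.0% in replicates 1 and 2 of the first table and 46.4% and 46.6% in the second. Transcripts without it took 53.5% and 53.0%, and in the second these shares were 53.6% and 53.4%. Of all Map2 TPM, incomplete and noncoding models included, Map2-204 took 34.5% and 34.0% in the first table and 27.2% and 27.0% in the second. The incomplete models Map2-215, Map2-216 and Map2-223 end inside the large exon and are not in these shares. In replicates 1 and 2 they took 1.79% and 2.34%, 1.18% and 1.59%, and 1.19% and 1.57% in the first table. In the second they took 3.64% and 2.23%, 3.90% and 4.85%, and 1.65% and 2.21%. Map2-204 has its own annotated start, and its 3′ end lies 3393 bases upstream of the end of Map2-201. Start and end use therefore enter the share of Map2-204 together with the exon.

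The small form was assigned to different transcripts by the 2 quantifiers although its sum was close. Map2-201 took 33.0% and 32.0% of Map2 TPM in the first table and close to 0 in the second. Map2-202 took 2.03% and 2.56% in the first table and 24.9% and 25.3% in the second. Both encode 1401 bases and differ in their noncoding 5′ exons and by 2 bases at the 3′ end. Map2-218, an incomplete model of 546 bases, took 11.2% and 10.2% in the first table and 25.9% and 25.1% in the second.

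The 93-base Map2 exon shown above was rarely included. Of Map2 transcripts that span it, 1.91% and 1.29% of TPM contained it in the first table and 2.77% and 2.40% in the second. The models with it, Map2-206 and Map2-207, received 946 and 636 of 53464 and 53089 counts.

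The full-length transcript Map1b-201, with 7392 coding bases, led Map1b. It took 83.5% and 81.7% of Map1b TPM in replicates 1 and 2 of the first table and 85.5% and 84.6% in the second, and 99.6% and 99.3% of complete coding Map1b TPM in the first table and 99.6% and 99.3% in the second. Most of the rest of the gene's TPM lay in noncoding models: Map1b-206 took 10.5% and 10.2% in the first table and close to 0 in the second, and Map1b-202 took 4.54% and 4.27% in the first and 13.5% and 13.3% in the second.

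Most Map1a TPM lay in the model with the downstream start. Map1a-202, with 8328 coding bases, took 76.3% and 77.4% of complete coding Map1a TPM in the first table and 78.3% and 78.6% in the second. Map1a-201, which starts upstream and has 9042 coding bases, took 23.7% and 22.6% in the first table and 21.7% and 21.4% in the second. Map1a-201 also ends further downstream, in a last exon of 2901 bases against 1507 in Map1a-202. The shares therefore carry any difference in 3′ end use as well as start use. The opposite-strand gene Ppip5k1 overlaps the 3′ end of Map1a-201, beyond the end of Map1a-202, and was itself at 10.2 and 15.3 TPM. Whether counting used strand is not given in the sources used here.

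Dcx showed a stable mixture of 2 main coding lengths. Its alternate exon, at chrX:143875755-143875892 (mm10, minus strand), has a longer and a shorter form. The 15 bases in capitals are absent from the shorter form, and with a further 3-base difference at an exon of 98 or 95 bases they separate transcripts of 1098 and 1080 coding bases.
Dcx 138-base exon: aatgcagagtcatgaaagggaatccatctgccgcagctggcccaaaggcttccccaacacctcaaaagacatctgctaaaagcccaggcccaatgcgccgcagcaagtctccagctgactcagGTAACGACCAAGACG

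The longer exon form was in 71.8% and 71.1% of complete coding Dcx TPM in the first table and in 70.2% and 69.8% in the second. Transcripts of 1080 coding bases took 28.2% and 28.9% in the first table and 29.8% and 30.2% in the second. All of the shorter form was in Dcx-204, whose 3′ end lies 7631 bases upstream of that of Dcx-201. Dcx-204 received 2189 and 2122 of 40208 and 37687 counts, so its share of TPM rests on a short model and also carries any difference in 3′ end use. Dcx-201 took 62.7% and 61.7% of Dcx TPM in the first table and 67.7% and 66.9% in the second. Dcx-202, of the same coding length but with a nearer 3′ end, took 6.53% and 6.51% in the first table and was listed at 0 in the second.

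Dclk1 was divided between several coding classes. Its longest proteins join doublecortin domains to a kinase domain, a start within the gene gives kinase-only forms, and an early end gives a doublecortin-only form. Of complete coding Dclk1 TPM, transcripts with both parts took 62.1% and 57.7% in replicates 1 and 2 of the first table and 50.3% and 48.7% in the second. The doublecortin-only transcript Dclk1-203 took 13.1% and 13.8% in the first table and 10.1% and 9.48% in the second. Dclk1-212, with neither part, took 3.13% and 3.07% in the first table and 4.58% and 6.14% in the second. Kinase-only transcripts took 21.8% and 25.4% in the first table and 34.9% and 35.7% in the second. Of all Dclk1 TPM, transcripts with both parts took 42.1% and 40.1% in the first table and 46.2% and 43.2% in the second, so that for this class the direction between tables turned with the denominator. Kinase-only transcripts took 14.8% and 17.6% of all Dclk1 TPM in the first table and 32.1% and 31.6% in the second. Transcripts with both parts came first and kinase-only transcripts came next in each library of each table, while the sizes of both shares differed more between tables than between libraries.

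An exon of Dclk1 just after the doublecortin part has forms of 133 and 85 bases. It is shown because its use differed most between the tables; it lies at chr3:55477805-55477937 (mm10, plus strand), and the 48 bases in capitals are absent from the shorter form.
Dclk1 133-base exon: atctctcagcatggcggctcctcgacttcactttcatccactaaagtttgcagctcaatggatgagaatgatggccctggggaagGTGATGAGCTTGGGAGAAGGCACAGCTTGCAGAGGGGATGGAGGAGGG

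The 133-base form was in 44.1% and 48.2% of the TPM of Dclk1 transcripts that span the exon in the first table, against 17.1% and 18.4% in the second. The leading transcript differed accordingly: Dclk1-201, with the long form, took 25.04% and 27.8% of Dclk1 TPM in the first table, and Dclk1-204, with the short form, 43.0% and 38.8% in the second. The authors' posterior standard deviation of the first-table count of Dclk1-204 was 529 on 9869 counts in replicate 1 and 762 on 7037 counts in replicate 2. Dclk1-214, an incomplete model of 413 bases in 1 exon, took 22.0% and 19.2% in the first table and was listed at 0 in the second.

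Further Dclk1 coding exons downstream of it also varied. A skippable exon of 74 bases was in 13.4% and 13.7% of spanning TPM in the first table and in 17.2% and 16.3% in the second. An exon of 97 bases, 3 bases longer than its other form, was in 70.0% and 78.7% in the first table and in 45.02% and 48.1% in the second. Forms of 109 bases (90.1% and 93.7%) and 114 bases (89.1% and 86.7%) prevailed at another pair of exons in the first table, as in the second (84.7% and 85.7%, and 89.1% and 88.0%). Of the smaller transcripts, the kinase-only Dclk1-211 took 6.199% and 7.67% of Dclk1 TPM in the first table and 8.53% and 8.99% in the second. Dclk1-213, also kinase-only, took 5.63% and 3.65% in the first table and 11.99% and 10.7% in the second. The retained-intron transcript Dclk1-206 took 8.33% and 8.36% in the first table and 5.36% and 7.12% in the second. Dclk1-208, also kinase-only, was listed at 0 in the first table and took 10.2% and 9.37% in the second.

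**Figure D4:**
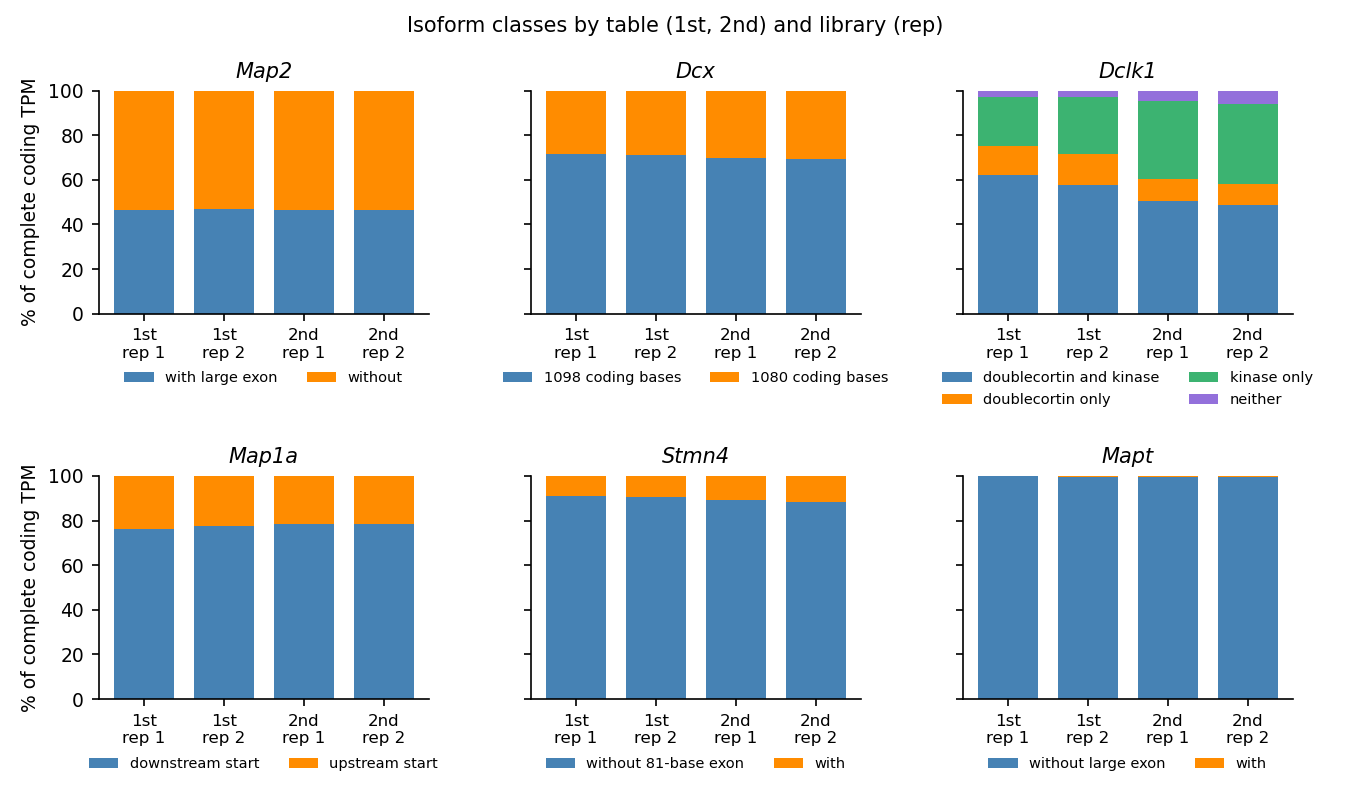
Isoform classes of 6 members as percent of the TPM of complete coding transcripts, stacked, for replicates 1 and 2 (rep) of the first and second tables (1st, 2nd); classes below 1% of Dcx are left out. Map2, Dcx, Map1a, Stmn4 and Mapt have bars of nearly equal division in all 4 columns, and Dclk1 has more kinase-only transcripts in the second table.

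The stathmins used few coding forms. Stmn1 transcripts of 447 coding bases took 99.2% and 99.0% of complete coding Stmn1 TPM in the first table and 99.5% and 99.5% in the second. The tables differed in the share of a second model: Stmn1-203, which starts downstream of Stmn1-201 and has the same coding length, took 0.783% and 1.01% of Stmn1 TPM in the first table and 27.1% and 27.0% in the second. Stmn1-203 also ends upstream of Stmn1-201, in a last exon of 168 bases against 512. Its share therefore carries any difference in 3′ end use as well as start use. Stmn2 has 1 complete coding transcript, Stmn2-201 with 537 coding bases. It took 71.8% and 72.4% of Stmn2 TPM in the first table and 99.5% and 98.9% in the second. The remainder in the first table was Stmn2-203, a processed transcript of 308 bases at 27.7% and 26.7%, which the second table lists at 0. In counts Stmn2-203 held 1295 and 1154 of 33186 and 31065, so its TPM rests on its short length. Stmn3-201, with 540 coding bases, is the single transcript of Stmn3.

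Stmn4 had an optional coding exon of 81 bases, at chr14:66356269-66356349 (mm10, plus strand), between coding exons of 96 and 209 bases.
Stmn4 81-base exon: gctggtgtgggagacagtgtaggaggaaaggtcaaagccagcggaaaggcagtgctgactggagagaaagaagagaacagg

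The 81-base exon was in 8.88% and 9.53% of complete coding Stmn4 TPM in the first table and in 10.6% and 11.8% in the second. The 57-base last coding exon shared with Stmn2 and Stmn3 was in 92.9% and 93.5% in the first table and in 91.3% and 91.8% in the second, the rest having a last coding exon of 18 bases. Most of the transcripts with the 81-base exon were Stmn4-204, at 6.60% and 5.69% of Stmn4 TPM in the first table and 4.39% and 3.89% in the second. Stmn4-201 took 84.4% and 78.9% of Stmn4 TPM in the first table and 44.8% and 42.1% in the second, where Stmn4-209, an incomplete model of 418 bases, took 45.3% and 46.9%. Stmn4-209 was listed at 0 in the first table. Class shares among complete coding transcripts were therefore close between tables for Stmn4, while shares of the whole gene were not.

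Over all members, 29 coding exons or exon forms were variable among complete transcripts. Of these, 11 are exons or forms that can be skipped and 18 differ in a boundary of their coding part. Where an exon has several forms, each is counted, so these are not counts of separate exons. Inclusion lay between 5% and 95% in both libraries for 19 of them, and these were the same 19 in both tables. They belonged to Dclk1, Dcx, Map1a, Map2 and Stmn4. Those of Map1a come from the coding start of Map1a-202, which lies further downstream, and not from a skipped exon.

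Retained introns differed in one direction between the libraries. Of the 7 members with retained-intron transcripts above 0, all 7 had a higher summed share in replicate 2 than in replicate 1, in each table. The same held for 71.3% of detected genes with such transcripts in the first table and for 70.2% in the second. Dclk1 had the largest share among the members in replicate 1 of the first table and in both libraries of the second. In replicates 1 and 2 of the second table Dclk1 had 8.26% and 11.3%, against 1.97% and 3.64% for Stmn4. Stmn4 had the largest share only in replicate 2 of the first table, 11.9% against 11.1% for Dclk1. In replicate 1 of the first table Stmn4 had 6.47%. The median share over the 7 members was 3.05% in replicate 1 and 3.91% in replicate 2, and over all such genes 11.6% and 14.2%. These transcripts are part of the gene levels given above.

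All 4 annotated loci of the TEC biotype (gene models awaiting experimental evidence) that lie within members on the same strand had higher TPM in replicate 2, as did 91% of all detected TEC loci. Of the genes called between the libraries, 103 were higher in replicate 1 and 430 in replicate 2. 5330431K02Rik, within Map1b, was at 4.23 and 9.34 TPM in replicates 1 and 2. Within Dclk1, Gm19817 was at 1.42 and 3.11 TPM, Gm42607 at 1.09 and 2.74 TPM and Gm42608 at 2.17 and 4.42 TPM. The annotated antisense genes of Mapt, Map1a, Map2 and Dclk1 (Gm11659, Gm14978, Gm10558 and Gm42609) were at 0 in both libraries.

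Other genes of the pathway were examined in 7 lists. Of 93 genes, 92 were detected, the exception being Map7d3, a relative of the kinesin cofactor Map7, at 0.110 and 0.240 TPM. None of the 92 that were tested was called different between the libraries. Tubulins had the highest median, 926 TPM, led by the alpha tubulin Tuba1a at 4387 and 4111 TPM and the beta tubulins Tubb2b at 2028 and 1934 TPM and Tubb2a at 1487 and 1399 TPM. At the low end were Tuba4a at 55.5 and 55.3 TPM and Tubb6 at 6.37 and 5.79 TPM. The median tubulin and the median member lay above the median of each of the other 6 lists.

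The 17 other structural MAPs and doublecortin relatives had a median of 30.6 TPM. Map4, a MAP of many tissues, was at 241 and 237 TPM, the autophagy protein gene Map1lc3a, whose product binds MAP1 proteins, at 198 and 186 TPM, and Map6, which makes microtubules resistant to cold, at 133 and 140.1 TPM. The lowest besides Map7d3 was Dcdc2a, a doublecortin-domain gene, at 3.01 and 1.89 TPM. Thus 9 of the 10 members lay above every gene of this list, and Map1a lay inside its range.

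Proteins of the microtubule ends had a median of 94.4 TPM over 16 genes. Apc was at 279 and 317 TPM, the end-binding gene Mapre2 at 206 and 213 TPM and Clip3 at 212 and 200.2 TPM. Slain1, at 37.9 and 40.8 TPM, and Clip4, at 13.4 and 18.2 TPM, were lowest. The 9 severing and nucleation genes had a median of 21.6 TPM, with the severing enzyme spastin (Spast) at 61.4 and 64.9 TPM, the gamma-tubulin complex gene Tubgcp2 at 29.5 and 27.4 TPM and the katanin relative Katnal1 at 23.5 and 28.5 TPM. Fign and Fignl1, of the fidgetin family, were lowest at 3.64 and 3.16 TPM and at 1.87 and 1.80 TPM.

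Enzymes that act on the members were all detected. The 20 kinase genes, which include regulators of kinases that phosphorylate tau, doublecortin or stathmin, had a median of 84.0 TPM. Cdk5r1, the activator of Cdk5, was at 206 and 190 TPM, the protein kinase A gene Prkacb at 171 and 185 TPM and the scaffold Mapk8ip1 of the JNK pathway at 171 and 168 TPM. The tau tubulin kinases Ttbk1, at 43.8 and 44.0 TPM, and Ttbk2, at 29.1 and 35.2 TPM, were lowest. The 9 phosphatase genes had a median of 139 TPM, with the scaffold subunit Ppp2r1a at 336 and 313 TPM and the calcineurin genes Ppp3cb at 171 and 176 TPM and Ppp3ca at 162 and 163 TPM. The catalytic subunit gene Ppp2ca was at 65.6 and 65.7 TPM.

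Among 12 tubulin-modifying enzymes the median was 36.6 TPM. Agtpbp1, which removes glutamates from tubulin, was at 159 and 167 TPM, the tubulin acetyltransferase Atat1 at 134 and 142 TPM and Vash1, a tubulin carboxypeptidase, at 69.1 and 73.6 TPM. Ttll11, a glutamylase, was at 4.78 TPM in each library and Agbl4, a deglutamylase, at 2.31 and 2.58 TPM.

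**Figure D5:**
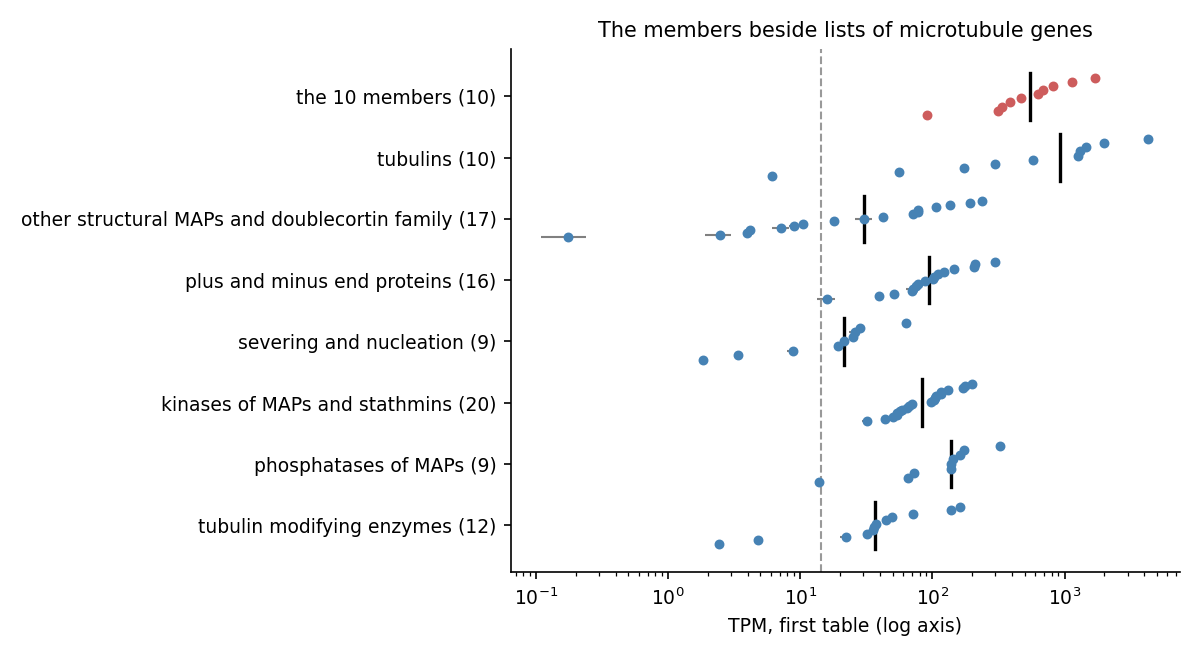
Levels of the 10 members (red) and of 7 lists of microtubule genes (blue), 1 point per gene at the mean of both libraries in TPM (log axis), with a grey line from the lower to the higher library and a black bar at the median of each list. The dashed line is the median of detected genes, 14.5 TPM; the median of the members, 546 TPM, is passed only by that of the tubulins, 926 TPM.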

How the data were processed

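Total RNA-seq tables of 2 left cerebral cortex libraries (mm10, GENCODE M21, per the file descriptions deposited with them) were used. Expected counts, TPM and the percent of the gene's TPM were deposited by the authors with RSEM's column names; the second table of estimated counts and TPM was deposited with kallisto's. The posterior standard deviation per count, used as a signal of reads shared between features, is also as deposited. The sources used here do not give the aligner, the quantifiers' versions, the strand setting or the handling of alleles. Gene entries without a gene identifier (96 spike-ins, 26248 numbered entries and phiX) were left out of library sizes and tests.

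Expected counts were rounded and compared between libraries by an exact conditional binomial test (summed count of at least 20, TMM factors from edgeR 4.0.16 in R 4.3.3, Benjamini-Hochberg adjustment over 18492 genes), checked on simulated counts. Intervals are exact at 95% and cover counting error only; a count of 0 allows up to 3 counts. Log2 ratios of TPM used a pseudocount of 1. Class shares were summed over transcripts with complete coding models, and exon shares over complete transcripts spanning the exon. Sequences came from the GENCODE M21 transcripts. Python 3.11.15, numpy 2.4.6, scipy 1.17.1 and pandas 2.3.3 were used. Named were every member, the 3 highest and 2 lowest genes of each list, leading transcripts, transcripts of at least 5% and variable exons, except 1 list gene and 1 exon not reported here. The members and lists were chosen with earlier results of these data known. Replicates carry the labels' numbers, and the spread between them may be technical.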

Additional observations from a re-analysis of the deposited data

How the results depend on the processing

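All 10 members were detected under every alternative tried (a minimum of 5 TPM, the second table, rescaled TPM, either library alone), and 85 to 92 of the 93 list genes were, with rescaled TPM not run for them. The median member level of 546 TPM was also 546 TPM without replicate 1 and without replicate 2; rescaled to nuclear protein-coding genes it was 1076 (first table) and 1162 (second). Pairs apart numbered 24 to 25, and 32 at a ratio of at least 1.5 times. The pairs were not all the same in both tables. Stmn2 over Stmn3 and Stmn4, and Map1b and Map2 over Stmn4, were apart only in the first table. Stmn1 over Stmn2, and Map2 and Mapt over Dclk1 and Dcx, were apart only in the second. Calls between libraries numbered 533, 550 with DESeq2 1.42.0 size factors, 602 without the count filter and 690 in the second table, with 0 members in each; without a minimum ratio they numbered 4649, with 8 members. Map2-204, the complete large Map2 form, took 34.2% of Map2 TPM (34.0% to 34.5% with either library alone) and 27.1% in the second table. In the first table it took 37.0% of protein-coding TPM and 46.8% of complete coding TPM, a denominator chosen after seeing the data. Leading transcripts of at least 50% were 7, and 6 in the second table. Counts of exons or exon forms between 5% and 95% stayed at 19. Of 29 exon shares, 23 moved in the second table by more than the SD between libraries; the cause was not tested. No paired analysis was possible because there is 1 group. With 2 libraries no SD is precise, and transcript shares depend on reads that fit several models.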
